A study of Mus musculus with 4 samples.

Results

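The genes described here encode the subunits and activators of the proteasome and of its interferon-inducible form, the immunoproteasome, in CD4 T cells of the mouse mesenteric lymph nodes. They were taken by name, as every gene of the deposited count table whose symbol begins with Psma, Psmb, Psmc, Psmd or Psme followed by a number, with pseudogenes left out. This gave 43 of the 13314 genes in the table, on 15 chromosomes. Of these, 5 are the inducible members (Psmb8, Psmb9, Psmb10, Psme1 and Psme2) and 31 are constitutive subunits. The other 7 are the assembly chaperones Psmd5, Psmd9 and Psmd10, the activators Psme3 and Psme4, and the matches Psmc3ip and Psme2b. Psmc3ip is a protein of meiotic recombination and no proteasome subunit. Psme2b is a near-copy of Psme2, so reads of these 2 genes may have been split between them and both are reported as uncertain.

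The libraries came from male mice that were germ-free, meaning raised without microbes, or had been given SPF (specific-pathogen-free) fecal microbiota 9 days earlier. Within each state, 1 group carried Foxp3GFP, a green fluorescent reporter of Foxp3, the transcription factor of regulatory T (Treg) cells. The other carried Foxp3CNS1-, which lacks an intronic Foxp3 enhancer used when Treg cells arise outside the thymus; reads from transcript ends do not check that deletion. Each of the 4 groups is 1 library, made from the pooled nodes of 3 mice, with about 5000 cells targeted and equal parts of sorted GFP+ and GFP- CD4 T cells. All 4 libraries share this sort, so the proportion of Foxp3-expressing cells is not that of the tissue. With 1 library per group there are no replicates and no test between groups: the 95% intervals below cover counting error only, and mouse, cage and library differences cannot be told apart from microbiota or genotype.

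The proteasome is the main protease of the cytosol and nucleus. Its barrel-shaped 20S core is built from outer rings of alpha subunits (Psma1 to Psma7) and inner rings of beta subunits (Psmb1 to Psmb7). Psmb5, Psmb6 and Psmb7 carry the catalytic sites. A 19S cap of ATPases (Psmc genes) and non-ATPases (Psmd genes) recognises ubiquitinated proteins, unfolds them and feeds them into the core. In lymphocytes and under interferon, Psmb8, Psmb9 and Psmb10 take the places of Psmb5, Psmb6 and Psmb7 in newly assembled cores, which are then called immunoproteasomes. Psme1 and Psme2 form an alternative, ATP-independent cap that is also induced by interferon gamma. Immunoproteasomes are known for the peptides they supply to MHC class I molecules and for clearing damaged proteins.

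The inducible members lie in 3 places of the genome (mm10, GENCODE M21 gene models). Psmb8 (chr17:34197721-34201454, + strand) and Psmb9 (chr17:34181987-34187764, - strand) are neighbours in the MHC. Psme1 (chr14:55578123-55581529, + strand) and Psme2 (chr14:55587441-55591113, - strand) are neighbours on another chromosome. Psmb10 stands alone (chr8:105935735-105938444, - strand). Their constitutive counterparts are elsewhere: Psmb5 at chr14:54614119-54618022 (- strand), Psmb6 at chr11:70525367-70527858 (+ strand) and Psmb7 at chr2:38588036-38644087 (- strand).

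Because these genes are grouped by their response to interferon, the promoter windows of the members were searched for the letters of interferon-response motifs. RefSeq windows (GRCm38.p6), from 250 bases before to 50 bases after a start, matched 37 members with 40 windows, out of 32851 windows in all. On either strand, the core of the interferon-stimulated response element (TTTC, any 2 bases and TTTC again) was in 4 members' windows, or 10%, against 3.44% of all windows. The gamma-activated site (TTCNNNGAA) was in 2 members' windows, or 5%, against 8.30% of all. The 6 matching stretches are shown because they are the only ones in the members' windows; each is 30 bases on the strand of its gene with the match in capitals.
Psme1 (chr14:55578493-55578522, + strand, within an exon): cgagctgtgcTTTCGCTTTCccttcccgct
Psmb3 (chr11:97703261-97703290, + strand): cacagtgactTTTCACTTTCcgctttccat
Psmd4 (chr3:95042675-95042704, - strand): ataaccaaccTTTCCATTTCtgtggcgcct
Psmd9 (chr5:123228021-123228050, + strand, match on the opposite strand): gggacagaatGAAAAAGAAAggaatgaaca
Psmb8 (chr17:34198088-34198117, + strand, within an exon of a GENCODE transcript): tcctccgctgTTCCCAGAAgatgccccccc
Psmd2 (chr16:20651646-20651675, + strand, within an exon): gcgcgtggccTTCTGGGAAaaggggcggtg
The first 4 hold the response-element core and the last 2 the gamma-activated site. Among the 5 inducible genes, the response-element letters were therefore found in the window of Psme1 and the gamma-activated letters in that of Psmb8. The windows of Psmb9, Psmb10 and Psme2 held neither string, which says only that these letters are not in these windows. The antioxidant response core (TGANNNNGC), a motif of the factors known to drive constitutive proteasome genes, was in 57.5% of the members' windows and 41.3% of all windows. CCAAT was in 35.0% and 37.4%. These matches are a description of sequence and were not linked to any measured binding.

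After the authors' filter 16948 cells remained, 3533 to 5406 per library, with 9360112 to 17929193 UMIs (unique molecular identifiers, each standing for a captured transcript) per library. Median UMIs per cell were 2399 (germ-free) and 2832 (colonized) for Foxp3GFP, and 2286 and 2763.5 for Foxp3CNS1-, so the colonized libraries were deeper per cell. Of 16791 distinct barcodes, 157 (0.935%) occurred in more than 1 library. Cd4 (133 to 150.3 CPM, UMIs of the gene per 1000000 UMIs of the library) and Cd3e (372 to 418 CPM) marked CD4 T cells in every library. Foxp3 lay between 78.4 and 95 CPM. Cd8a (2.23 to 7.47 CPM) and the B cell gene Cd79a (2.78 to 4.28 CPM) were low. The lists they belong to were not near 0 as sums. By library, 8 B cell markers summed to 819 to 976 CPM, and 5 markers of CD8 T and NK cells to 109 to 153 CPM. Cells with a UMI of the heat-shock genes Hspa1a or Hspa1b made up 0.226% and 0.340% of the germ-free libraries against 9.95% and 8.84% of the colonized ones. The summed level of 5 plasma cell markers was 41.1 and 50.9 CPM without microbiota and 156 and 207 CPM after colonization. The part of these differences in the results below was not tested beyond the values given beside them.

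The 43 genes together held 0.691% of all UMIs in germ-free and 0.829% in colonized Foxp3GFP cells, and 0.755% in germ-free and 0.875% in colonized Foxp3CNS1- cells. Values of all 4 libraries below keep this order. Both colonized libraries were above both germ-free libraries, and Foxp3CNS1- was above Foxp3GFP in each state. The most abundant member was Psmb8, the inducible chymotrypsin-like subunit, with 47128 UMIs in all. Psmb8 was at 780 and 959 CPM in germ-free and colonized Foxp3GFP, and at 858 and 995 CPM in germ-free and colonized Foxp3CNS1-. The lowest were Psmc3ip (391 UMIs in all, 6.89 to 8.11 CPM) and Psme4, a nuclear activator (604 UMIs in all, 10.6 to 12.7 CPM). UMIs from transcript ends are not scaled to length, but capture can differ between genes, so levels are compared here across libraries and clusters rather than between genes.

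**Figure D1:**
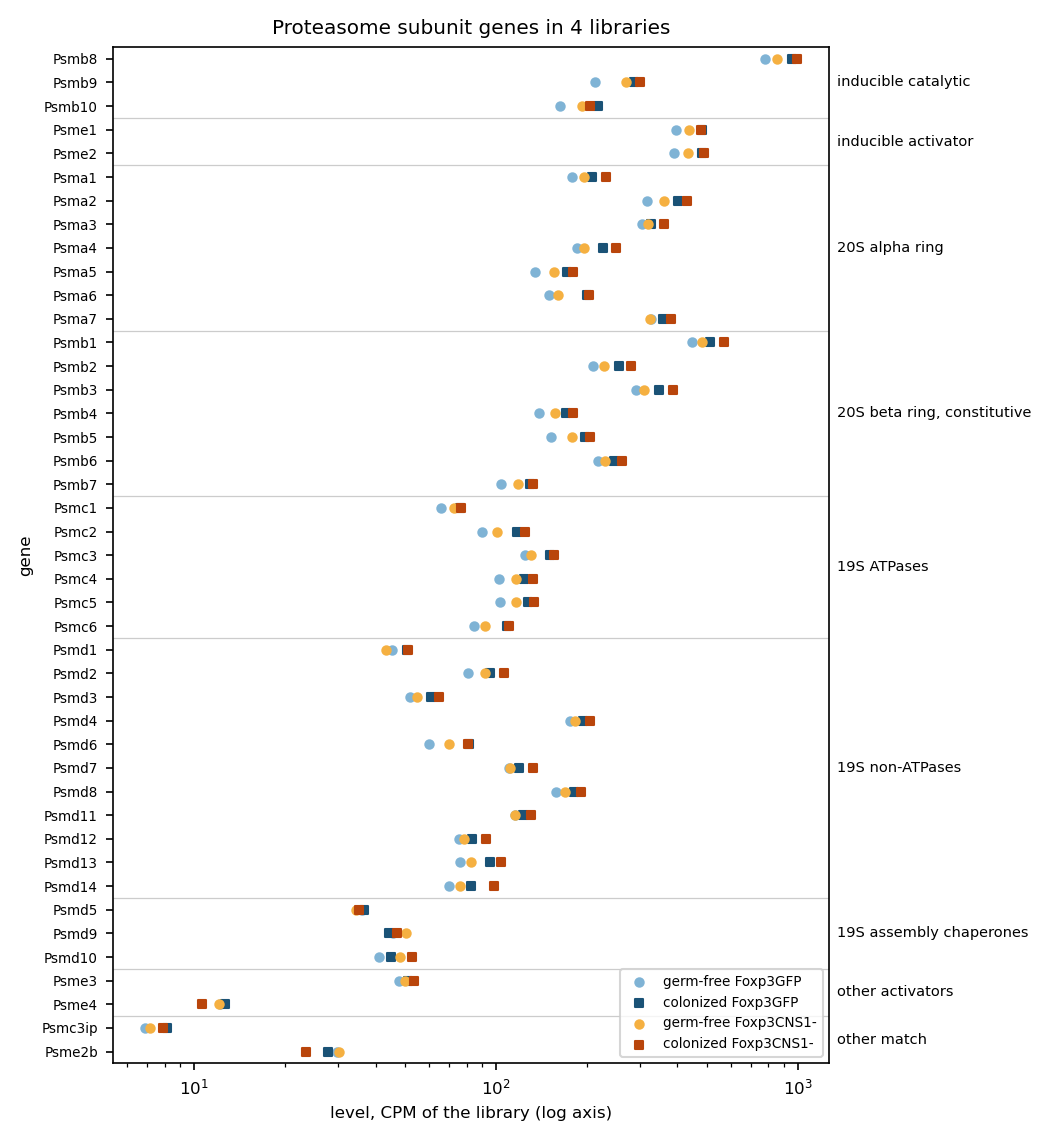
Level of each of the 43 genes in the 4 libraries, in CPM on a log axis, with 1 point per library and the genes grouped by role. The points of the inducible and constitutive subunits from the germ-free Foxp3GFP library sit at or near the low end of each row; Psmb8 stands highest, between 780 and 995 CPM.

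The other inducible genes followed the same order of libraries in part. Psmb9, which replaces the caspase-like subunit Psmb6, was at 213 and 287 CPM in germ-free and colonized Foxp3GFP, and at 270.3 and 301 CPM in their Foxp3CNS1- counterparts. Psmb10, the inducible trypsin-like subunit, was at 163, 217, 193 and 206 CPM in the same order. For both genes the germ-free Foxp3GFP library stood lowest, and for Psmb10 the highest library was colonized Foxp3GFP. Psme1, the alpha chain of the interferon-inducible cap, was at 395, 484, 436 and 479 CPM. Psme2, its beta chain, was at 390.4, 483, 435 and 490.1 CPM. The cap genes thus had nearly equal levels in the colonized libraries of both genotypes.

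The constitutive counterparts were lowest in germ-free Foxp3GFP and highest in colonized Foxp3CNS1-. Psmb5, the chymotrypsin-like subunit of the standard core, was at 152 and 197 CPM in the Foxp3GFP libraries and at 179 and 206 CPM in the Foxp3CNS1- ones. Psmb6 was at 218, 246, 230.3 and 261 CPM in that order. Psmb7 was at 104, 130.3, 118 and 133 CPM. Within each genotype, the colonized library was the higher for all 3 genes. The 31 constitutive subunits summed to 4753 and 5630.4 CPM in Foxp3GFP and to 5128 and 6049 CPM in Foxp3CNS1-, and the 5 inducible members to 1942, 2429, 2192 and 2471 CPM. The inducible share of all members' UMIs was 28.1%, 29.3%, 29.03% and 28.2%.

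The first comparison asked how these genes differed between colonized and germ-free Foxp3GFP mice. Nearly the whole complex was higher after colonization: 41 of 43 members had a higher level, including all 5 inducible and all 31 constitutive genes. Of all 9990 genes compared, 4770 had a higher level. The median log2 ratio was 0.31 for the inducible members (0.25 to 0.36 is the interval of Psme2, the median gene) and 0.25 for the constitutive subunits, against -0.01 over all 9990 genes with at least 50 UMIs in both libraries together. All 43 members passed that minimum in every comparison. A level at least 25% higher, or at least 20% lower, was counted as past the threshold. Past it, 11 members were higher and 0 lower; over all genes, 12.0% were higher and 14.4% lower.

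Among the inducible genes the log2 ratio was 0.43 for Psmb9 (interval 0.35 to 0.50) and 0.41 for Psmb10 (0.33 to 0.50), both past the threshold. It was 0.30 for Psmb8 (0.26 to 0.34), 0.29 for Psme1 (0.24 to 0.35) and 0.31 for Psme2, which were short of it with intervals above 0. The constitutive catalytic genes had 0.37 for Psmb5 (0.28 to 0.46), 0.33 for Psmb7 (0.22 to 0.44) and 0.18 for Psmb6 (0.10 to 0.25). Psmb5 and Psmb7 were therefore as far up as the inducible genes, and Psmb6 less far.

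Of the 31 constitutive subunits, 29 had an interval above 0 (17.9% of all genes did) and 9 were past the threshold. The further members farthest above 0, here and below by the interval bound nearest to 0, were Psma6, Psma2 and Psmd6. Psma6, an alpha-ring subunit, was at 150.1 CPM in the germ-free and 200.3 CPM in the colonized library, a log2 ratio of 0.42 (0.33 to 0.51). Psma2, also of the alpha ring, went from 317 to 402 CPM (0.34, interval 0.28 to 0.40). Psmd6, a non-ATPase of the cap, went from 60.2 to 81.8 CPM (0.44, interval 0.30 to 0.58). No member had an interval below 0.

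By role, the median log2 ratio was 0.29 in the alpha ring, 0.28 in the constitutive beta ring, 0.29 in the 19S ATPases and 0.20 in the 19S non-ATPases. The assembly chaperones, which help build the cap and then leave it, had a median of 0.02, and the other activators Psme3 and Psme4 had 0.07. Psmd9, one of the chaperones, had -0.05, and Psme2b had -0.10 (-0.32 to 0.12). The stable parts of the particle were thus higher together, while the medians of the chaperones and the other activators were closer to that of all genes. These are few genes with wide intervals. Those of Psmd10 (-0.05 to 0.31), Psme3 (-0.08 to 0.26) and Psme4 (-0.28 to 0.39) also held the constitutive median of 0.25. The intervals of Psmd5 (-0.18 to 0.21) and Psmd9 (-0.22 to 0.13) lay below it. With the mix of cell clusters held fixed, the medians were 0.24 for the inducible genes, 0.17 for the constitutive genes and -0.05 for all genes, and 2 members rather than 11 were past the threshold.

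The second comparison asked the same in Foxp3CNS1- mice. Here 40 of 43 members were higher in the colonized library, again including all 5 inducible and all 31 constitutive genes. Of all 10204 genes compared, 4462 were higher. The median log2 ratio was 0.15 for the inducible members and 0.23 for the constitutive subunits, against -0.04 over 10204 genes. Past the threshold, 4 members were higher (8.73% of all genes were) and 1 lower (15.8% of all genes were). All 4 higher members were constitutive, and the lower one was Psme2b.

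The inducible genes had log2 ratios of 0.21 for Psmb8 (0.18 to 0.25), 0.15 for Psmb9 (0.09 to 0.22), 0.10 for Psmb10 (0.01 to 0.18), 0.14 for Psme1 (0.08 to 0.19) and 0.17 for Psme2 (0.12 to 0.23). None reached the threshold, and each interval stood above 0, as for 14.7% of all genes. Psmb5 had 0.20 (0.12 to 0.29), Psmb6 0.18 (0.11 to 0.26) and Psmb7 0.17 (0.06 to 0.27). Inducible and constitutive catalytic genes were therefore up by like amounts in this genotype.

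The further members farthest above 0 were Psma4, Psma6 and Psmb3, all of the 20S core. Psma4 went from 195 CPM in the germ-free to 251 CPM in the colonized library (log2 ratio 0.36, interval 0.28 to 0.44). Psma6 went from 161 to 204 CPM (0.35, interval 0.26 to 0.43). Psmb3 went from 309.5 to 386 CPM (0.32, interval 0.26 to 0.38). Below 0, the interval of Psme2b was the farthest, at 30.3 against 23.5 CPM (-0.37, interval -0.59 to -0.14).

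The size in Foxp3CNS1- depended on which cells were counted. With the mix of clusters fixed, the constitutive median was 0.13, and without cluster 8, described below, it was 0.14. Without the cells that held a UMI of a strongly interferon-induced gene, the inducible median was 0.074; that rule left out 44.8% of the germ-free and 73.7% of the colonized cells. In Foxp3GFP the same rule left out 43.4% and 76.8% and gave 0.22. Without the Hspa1a and Hspa1b cells the inducible medians were 0.31 in Foxp3GFP and 0.15 in Foxp3CNS1-, and the constitutive ones 0.25 and 0.22.

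**Figure D2:**
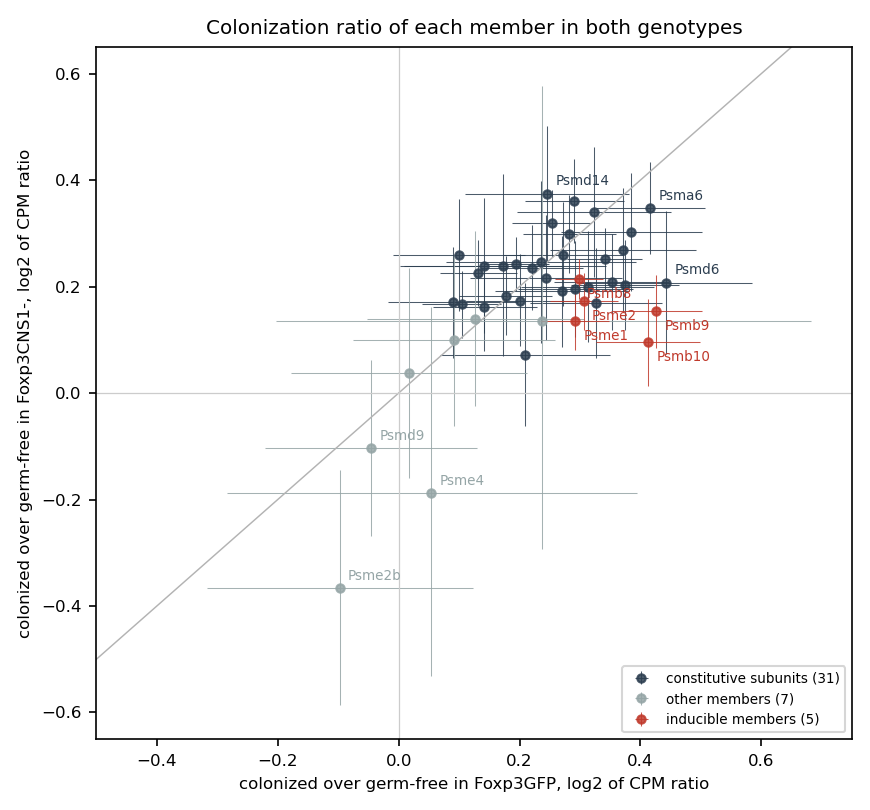
Log2 ratio of colonized over germ-free for each of the 43 genes, in Foxp3GFP and in Foxp3CNS1- mice, with bars for the 95% interval of the counts. The 5 inducible genes lie between 0.29 and 0.43 in Foxp3GFP and between 0.10 and 0.21 in Foxp3CNS1-, while the constitutive subunits overlap between the genotypes.

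The difference between the genotypes in the colonization log2 ratio was then computed for each gene, with an interval from its 4 counts; as there is 1 library per group, this difference has no replicate check. All 5 inducible members had a smaller ratio in Foxp3CNS1- than in Foxp3GFP, with every interval below 0. Over 9920 genes, 54.8% had a difference below 0 and 9.04% an interval below 0, a share that again includes genes with far fewer UMIs. The difference was -0.32 for Psmb10 (-0.44 to -0.20), -0.27 for Psmb9 (-0.37 to -0.17), -0.16 for Psme1 (-0.23 to -0.08), -0.13 for Psme2 (-0.21 to -0.06) and -0.08 for Psmb8 (-0.14 to -0.03). The median of the inducible members was -0.16, against 0.01 for the constitutive subunits and -0.02 for all genes. The constitutive median took either sign over the alternatives, from -0.04 to 0.02, while the inducible one lay between -0.23 and -0.12.

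The constitutive genes were divided, with 16 above and 15 below 0. Psmb5 (-0.17, interval -0.29 to -0.05) and Psmb7 (-0.16, interval -0.31 to -0.01) were below 0 with the inducible genes, and Psmb6 was at 0.01. Of the 31 intervals, 5 were below 0 (9.04% over all genes) and 2 above (5.53% over all genes), the latter a share near that of all genes. Beside Psmb5 and Psmb7, those below were Psmd6 (-0.23), Psma5 (-0.14) and Psma2 (-0.09). Those above were Psmd7 (0.16, interval 0.01 to 0.31), a non-ATPase of the cap, and Psma7 (0.09, interval 0.01 to 0.18), an alpha-ring subunit.

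Much of the difference in the inducible genes lay between the germ-free libraries. The following genotype comparisons use the same 4 libraries as the colonization comparisons and are not independent of them. In germ-free mice, Foxp3CNS1- was above Foxp3GFP for Psmb9 by a log2 ratio of 0.34 (0.26 to 0.42) and for Psmb10 by 0.24 (0.14 to 0.33). Psmb8 had 0.14, Psme1 0.14 and Psme2 0.16, so all 5 were higher in the library without the enhancer. The median was 0.16 for the inducible members, 0.11 for the constitutive subunits (29 of 31 higher) and 0.05 over all genes (5864 of 9774 higher). Psmb9 was the only member past the threshold, by which 11.1% of all genes were higher and 5.43% lower.

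Psmb5 had a germ-free genotype ratio of 0.23, Psmb7 of 0.19 and Psmb6 of 0.08 (-0.01 to 0.16). The further members farthest above 0 were Psma2 (0.19, interval 0.12 to 0.26), Psma5 (135 CPM in Foxp3GFP and 156 in Foxp3CNS1-, 0.21, interval 0.10 to 0.32) and Psmb4 (139 and 158 CPM, 0.18, interval 0.08 to 0.29). No member had an interval below 0.

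In colonized mice the inducible genes of the genotypes were close. Their median log2 ratio was 0.02, and its sign depended on the scaling: it was -0.01 with edgeR's TMM factors, -0.02 when ribosomal protein and mitochondrial genes were left out of the total, and -0.01 with the cluster mix fixed. The median over all genes shifted with the same settings, to -0.0035, -0.013 and 0.0015 in that order, and stayed above the inducible median in each. Psmb10 was lower in Foxp3CNS1- (-0.08, interval -0.15 to -0.01), Psmb8 (0.05, interval 0.02 to 0.09) and Psmb9 (0.07, interval 0.01 to 0.13) were higher, and Psme1 (-0.01) and Psme2 (0.02) were level. The constitutive median was 0.09, with 30 of 31 genes higher, against 0.03 over all genes, of which 5865 of 10336 were higher. By the lower interval bound, Psmd14, the deubiquitinase of the cap, was the farthest above 0, at 83.1 CPM in Foxp3GFP and 98.3 CPM in Foxp3CNS1- (0.24, interval 0.13 to 0.35). Psmb1 (513 and 569 CPM, 0.15, interval 0.10 to 0.19) and Psmb3 (347 and 386 CPM, 0.15, interval 0.10 to 0.21) came next by that bound, although Psmd10 had a larger ratio with a wider interval (0.24, interval 0.09 to 0.39). Psme2b was below 0 (27.8 and 23.5 CPM, -0.24, interval -0.45 to -0.04). No member passed the threshold in either direction; 6.92% of all genes were higher and 6.10% lower by it.

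Other genes of the pathway were taken from 3 lists. Of 19 assembly and regulatory genes, the median colonization log2 ratio was 0.08 in Foxp3GFP and 0.12 in Foxp3CNS1-. In Foxp3GFP 0 were higher and 1 lower past the threshold; in Foxp3CNS1- the counts were 1 and 1. Pomp, the chaperone of core maturation, had 0.27 and 0.30, Txnl1 0.28 and Vcp 0.23 in Foxp3GFP, and Uchl5, a deubiquitinase of the cap, 0.44 in Foxp3CNS1-. Nfe2l1, the transcription factor that drives proteasome genes when proteolysis falls short, was lower in both genotypes (-0.32 and -0.36), as was Ecpas in Foxp3GFP (-0.34). The assembly factors were thus not up as a group to the extent of the subunits.

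Peptide loading genes, which carry proteasome products to MHC class I, had a median of 0.29 in Foxp3GFP (6 of 15 higher past the threshold, 0 lower) and 0.09 in Foxp3CNS1- (1 higher, 1 lower). B2m, the light chain of MHC class I, had 0.33 and 0.18. In Foxp3GFP H2-T23 had 0.62 and Pdia3 0.39; in Foxp3CNS1- H2-Q7 had 0.46, Calr 0.20, H2-Q4 -0.49 and Nlrc5, the transactivator of MHC class I genes, -0.25. The H2 genes are near-identical to one another and their values are uncertain. This list and the inducible members were therefore both less far up in Foxp3CNS1-: the difference between genotypes was below 0 for 13 of the 15, with a median of -0.18.

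Genes strongly induced by interferon showed the largest ratios. Of 17 in the table, 16 were higher past the threshold in each genotype; the median was 1.97 in Foxp3GFP and 2.05 in Foxp3CNS1-. Ifit3 had 2.97 and 3.30, Ifit3b 3.15 and 3.14, Rsad2 3.12 in Foxp3GFP and Ifit1 2.57 in Foxp3CNS1-. The median of the genotype difference over this list was -0.07. The inducible proteasome genes, with medians of 0.31 and 0.15, stood far below the strong interferon list and nearer to the peptide loading list in both genotypes.

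The authors' deposited clusters, numbered 0 to 9, were compared next, each against the other cells of its own library. The clusters were made from all genes including these, so the values are a description over 4 libraries, given as the mean with its SD over libraries. Cluster 9 held 84 cells and enters no count. Cluster 8 (640 cells) stood apart for the constitutive proteasome: the summed log2 ratio of the 31 subunits was 0.74 (SD 0.05, n = 4 libraries), against 0.10 (SD 0.17) for the 5 inducible genes. In cluster 8 the constitutive genes summed to 7764, 8852, 7902 and 9201 CPM. The inducible genes summed to 2315, 2419.6, 2535 and 2349 CPM. The constitutive sum of cluster 8 was thus above the library-wide sum everywhere, while the inducible sum was above it in both germ-free libraries and below it in both colonized ones.

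**Figure D3:**
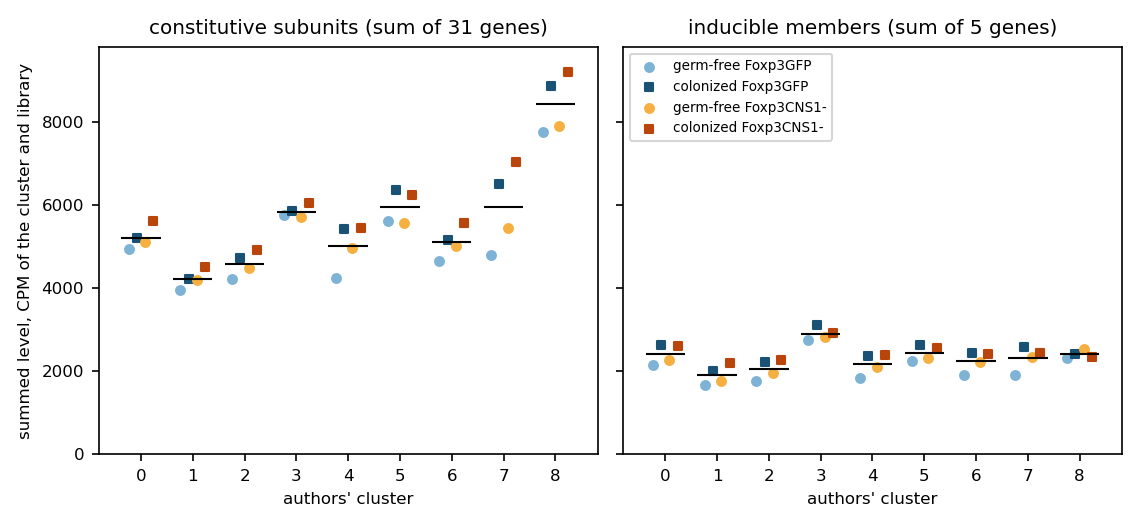
Summed level of the constitutive subunits and of the inducible members in clusters 0 to 8, in CPM of the cluster and library. Each library is 1 point, with a bar at the mean of the 4. Cluster 8 stands highest for the constitutive subunits (mean 8430 CPM) and cluster 3 for the inducible members (mean 2896 CPM). Cluster 1 is lowest for both (4213 and 1903 CPM). Its inducible log2 ratio to the other cells was -0.0040 when ribosomal protein and mitochondrial genes were left out of the total.

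In cluster 8, 28 of the 31 constitutive subunits were higher past the threshold in each of the 4 libraries: 7 of 7 in the alpha ring, 6 of 7 in the beta ring, 6 of 6 ATPases and 9 of 11 non-ATPases. Over all members 31 of 43 were higher (18.9% of 11047 genes were) and 1 was lower (15.1% of genes were). The constitutive genes that were not past it in every library included Psmb1 (mean log2 ratio 0.15) and Psmd4 (0.14). Psmd1, the scaffold of the cap, was highest among the constitutive subunits at 1.36, with 97.9, 122, 97.98 and 107 CPM in the order of libraries used above. Psme3, the nuclear activator known for its links to the cell cycle, was at 1.43 (106, 118, 132 and 114 CPM). Psmc3ip, the recombination protein, was at 2.52.

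The catalytic subunits separated in cluster 8. Psmb7 was at 1.17 (208, 289, 216 and 263 CPM), Psmb5 at 0.95 (294, 337, 306 and 361 CPM) and Psmb6 at 0.72 (379, 383, 367 and 359 CPM). Psmb8 was at 0.00 (842, 940.1, 884 and 927 CPM), Psmb9 at 0.00 (235, 269, 297.5 and 270.2 CPM) and Psmb10 at -0.35 (139.9, 189, 148 and 149 CPM). In each library the 3 constitutive catalytic genes were thus above the other cells and Psmb10 was below them. Psme2 was at 0.45 and Psme1 at 0.13. Psmd10, also named gankyrin, was at 0.01, and Psme2b at -1.79 from 42 UMIs.

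Cluster 8 also held the highest sum of proliferation markers (3731 CPM over 7 genes, against 420.0 to 1548 in the other clusters) and the deepest cells, with a median of 6716 UMIs against 2074.5 to 2855 in the others. Assembly and regulatory genes were higher with it (log2 ratio of the sum 0.62, with 10 of 19 past the threshold in every library). Peptide loading genes were at -0.44 (2 higher and 8 lower of 15) and strong interferon genes at -1.03. With each cell thinned to 1500 UMIs the constitutive log2 ratio was 0.71 and the inducible one 0.21; scaled without ribosomal protein and mitochondrial genes they were 0.58 and -0.054. Doublets were not called, and their part in the depth of cluster 8 was not tested; without the cells above the 98th percentile of UMIs in their library they were 0.68 and 0.28.

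**Figure D4:**
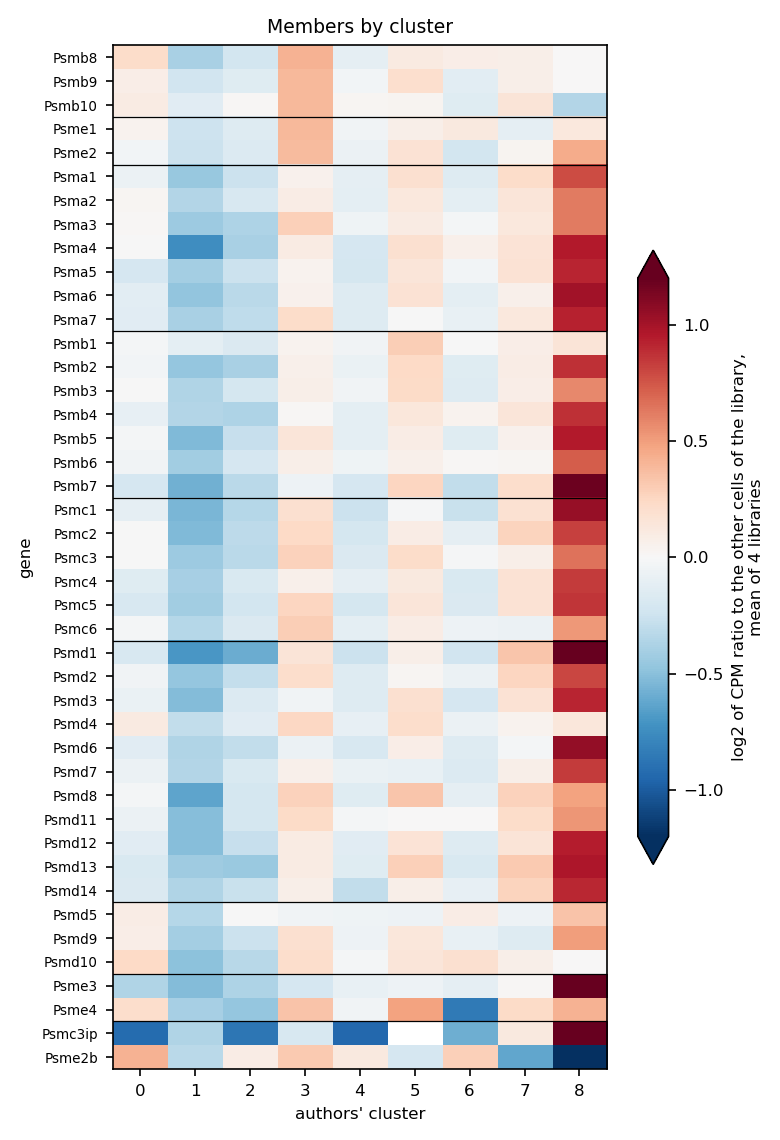
Mean log2 ratio over the 4 libraries of each gene in each cluster over the other cells of the same library, as colour. The genes are in rows by role and clusters 0 to 8 in columns. A cell without a value, where present, is white because at least 1 library held 0 UMIs of the gene there. Cluster 8 is high across the constitutive rows and near 0 for Psmb8 and Psmb9, cluster 3 is high across the 5 inducible rows, and cluster 1 is low across nearly all rows.

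The inducible members stood highest in cluster 3 (1846 cells), which had the highest sum of Treg markers (4100.1 CPM over 7 genes). Their summed log2 ratio there was 0.40 (SD 0.10), against 0.13 (SD 0.13) for the constitutive subunits. The sum was 2737 and 3096 CPM in the Foxp3GFP libraries and 2829 and 2921 CPM in the Foxp3CNS1- ones. All 5 genes were up by nearly the same amount, Psmb8 at 0.41, Psmb9 at 0.39, Psmb10 at 0.39, Psme1 at 0.39 and Psme2 at 0.38. None of them was past the threshold in every library, by which 12.7% of all genes were higher, although each was above 0 in all 4.

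The next members in cluster 3 were Psme4 (0.34), Psme2b (0.32) and Psmc6 (0.29), and the lowest were Psme3 (-0.20), Psmc3ip (-0.19) and Psmd6 (-0.07). Peptide loading genes were at 0.72 (13 of 15 higher in every library) and strong interferon genes at 0.70. Cluster 3 also held the highest sums of B cell markers (2544 CPM over 8 genes, against 346 to 1174 elsewhere) and plasma cell markers (905 CPM over 5 genes, against 28.9 to 117), and a low ribosomal share of UMIs (28.8%). Their part in the result was not tested. When ribosomal protein and mitochondrial genes were left out of the total, the inducible ratio of cluster 3 was 0.17 and the constitutive ratio was -0.10. Without the germ-free Foxp3GFP library the constitutive mean was 0.076, and with cells thinned to 1500 UMIs it was 0.22.

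Proteasome genes were lowest in clusters 1 (2751 cells) and 2 (2591 cells), which had the highest sums of markers of naive T cells (2448 and 2309 CPM over 6 genes, against 469 to 1492 elsewhere). In cluster 1 the constitutive log2 ratio was -0.41 (SD 0.10) and the inducible one -0.29 (SD 0.07). The constitutive sum there was 3945, 4216, 4194 and 4496 CPM and the inducible sum 1664, 2007, 1759 and 2183 CPM in the order of libraries used above. Of the constitutive genes 13 of 31, of the inducible genes Psmb8, and of all members 16 were lower past the threshold in every library (23.1% of all genes were). The lowest were Psma4 (-0.74), Psmd1 (-0.70) and Psmd8 (-0.63), and the closest to 0 were Psmb1 (-0.12), Psmd4 (-0.29) and Psme2b (-0.32).

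In cluster 2 the ratios were -0.26 (SD 0.05) and -0.17 (SD 0.03), with 3 of 43 members lower in every library (15.1% of all genes were), and Psmc3ip (-0.87), Psmd1 (-0.60) and Psme4 (-0.46) lowest. Ribosomal protein genes took 47.3% of UMIs in cluster 1 and 42.5% in cluster 2, the highest shares among the clusters. Scaled without them, the inducible ratio was near 0 in both (-0.0040 and -0.031), while the constitutive ratio stayed below 0 (-0.12 and -0.13). The other clusters lay closer to their libraries: the constitutive ratio ranged from -0.12 in cluster 4 to 0.16 in cluster 5, and the inducible ratio from -0.07 in cluster 4 to 0.12 in cluster 5, over clusters 0, 4, 5, 6 and 7. Over clusters 0 to 8, 29 of the 31 constitutive subunits had their highest mean level in cluster 8 and 29 their lowest in cluster 1. Of the inducible genes 4 were highest in cluster 3, Psme2 was highest in cluster 8, and Psmb10 alone was lowest in cluster 8.

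The balance of inducible to constitutive catalytic genes was followed as the share of Psmb8, Psmb9 and Psmb10 in the UMIs of the 6 catalytic genes. It describes transcripts, not assembled particles. In Foxp3GFP it was 70.9% in the germ-free library (exact binomial interval 70.3 to 71.6) and 71.8% in the colonized one (71.3 to 72.4). In Foxp3CNS1- it was 71.5% in both, with intervals of 70.8 to 72.1 and 71.0 to 71.9. The intervals of all 4 libraries overlapped. Pooled over libraries, the share was 71.4% to 75.7% in clusters 0 to 7, with the highest in cluster 3, and 58.1% in cluster 8. In cluster 8 it was 58.0%, 58.1%, 59.9% and 57.8% in the order used above, so all 4 libraries had it.

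All 3 exchanges contributed to the low share of cluster 8. The ratio of Psmb8 to Psmb5 UMIs was 2.70, against 4.89 to 5.92 in clusters 0 to 7. Psmb9 to Psmb6 was 0.72, against 1.02 to 1.38. Psmb10 to Psmb7 was 0.62, against 1.49 to 2.20. In the authors' second clustering, subsets s6 (542 cells) and s8 (227 cells) held 402 and 218 cells of cluster 8. Their share was 57.0% and 61.1%, and the constitutive genes were at 8280 and 8068 CPM on average. As these are largely the same cells, the values are no separate check of cluster 8. Subset s0 of the same clustering (1942 cells), drawn mostly from cluster 3, had the highest inducible sum, at 2906 CPM on average (2701 to 3138 over libraries). Subset s4 (884 cells) was close to it, at 2824 CPM (2448 to 3161), with 627 cells from cluster 0 and 214 from cluster 5. A high inducible sum was therefore not particular to the cells of cluster 3.

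**Figure D5:**
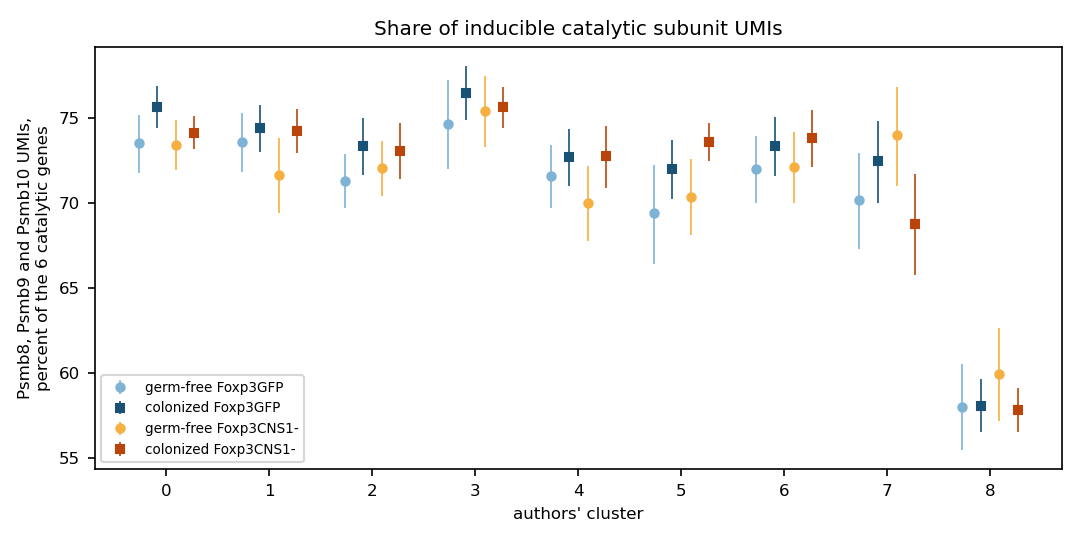
Share of Psmb8, Psmb9 and Psmb10 in the UMIs of the 6 catalytic subunit genes, in percent, by cluster and library, with exact binomial 95% intervals. Cluster 8 lies between 57.8% and 59.9% in the 4 libraries, below the pooled 71.4% to 75.7% of clusters 0 to 7.

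Cluster 8 moved the library-wide share. Its cells numbered 106, 174, 84 and 276 in the order of libraries used above and gave 8.56%, 13.9%, 7.2% and 15.0% of the catalytic UMIs, more in the colonized libraries. Without them, the inducible share of Foxp3GFP was 72.2% germ-free (71.4 to 72.8) and 74.1% colonized (73.5 to 74.6), and that of Foxp3CNS1- was 72.4% (71.7 to 73.1) and 73.9% (73.4 to 74.3). In each genotype the colonized share was then the higher, with intervals that did not overlap. With the cluster mix fixed in place of this, the shares were 70.5%, 72.1%, 70.8% and 71.7%. The equal shares of the Foxp3CNS1- libraries as a whole therefore held only with cluster 8 at its measured size.

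Within single clusters the colonization difference was present in most cell groups. In Foxp3GFP the inducible sum was higher in the colonized library in 9 of 9 clusters (0 to 8), with 8 intervals above 0 and log2 ratios of 0.06 to 0.43 (median 0.29). The constitutive sum was higher in 9 of 9, with 8 intervals above 0 and a median of 0.16. The inducible ratio exceeded the constitutive one in 7 of 9 clusters, and the inducible catalytic share was higher after colonization in 9 of 9.

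In Foxp3CNS1- the inducible sum was higher in 8 of 9 clusters, with 6 intervals above 0, ratios up to 0.31 and a median of 0.15. Cluster 8 was the exception, with -0.11 (-0.19 to -0.03). The constitutive sum was higher in 9 of 9 clusters, each with an interval above 0, from 0.08 to 0.37 (median 0.14). The inducible ratio exceeded the constitutive one in 4 of 9, and the catalytic share was higher in 7 of 9; it was lower in cluster 7 (74.0% germ-free, 68.8% colonized) and cluster 8 (59.9% and 57.8%). Between genotypes, the inducible sum was higher in Foxp3CNS1- in 9 of 9 clusters of germ-free mice (6 intervals above 0, median 0.13) and in 3 of 9 of colonized mice (median -0.015). The germ-free order of whole libraries was thus also present within clusters. The whole colonized libraries differed little (2471 CPM in Foxp3CNS1- and 2429 in Foxp3GFP). Within clusters the colonized ratio was below 0 in 6 of 9, from -0.084 to 0.12. Only 1 interval was below 0 and 1 above it, so in most clusters counting error could not tell the ratio from 0.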

How the data were processed

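The deposited table holds UMI counts per cell from 10x Genomics 3′ libraries, made by the authors with Cell Ranger (version not given in the sources used here), Scanpy 1.5.1 and mm10, per the submitters' processing notes. Cluster numbers and the cell filter are those of the authors' deposited cell table. Of 17478 cells, 227 had no library and 303 were removed by the authors; 16948 were analysed. No doublet caller was run. Counts were summed per library, or per library and cluster, and divided by the sum over all genes (CPM); depth is given in the opening. Ratios carry exact conditional binomial 95% intervals (Clopper-Pearson), differences of ratios normal intervals from 4 counts. Genes with at least 50 UMIs in both libraries together were compared, and a level at least 25% higher or 20% lower was counted; the median of a list is over its genes. Scripts were tested on simulated data. All members are described; named further are up to 3 per direction whose interval bound lies farthest from 0, and per cluster the 3 highest and 3 lowest. The members and lists were chosen with earlier results of these data known. Alternatives covered scaling, thinning, cell weights, cluster mix, left-out cells and thresholds. Python 3.11.15, numpy 2.4.6, scipy 1.17.1, pandas 2.3.3 and edgeR 4.0.16 (TMM factors only, in R 4.3.3) were used. Mx1 and Paaf1, on the lists, and 3 columns of the cell table were not used here. A further gene list is not reported here.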

Additional observations from a re-analysis of the deposited data

Results flagged for a closer look

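Psmb10, the inducible trypsin-like subunit, had genotype ratios of opposite sign in the microbiota states: Foxp3CNS1- over Foxp3GFP was 0.24 on the log2 scale in germ-free and -0.08 in colonized mice, a difference of -0.32. With 1 library per group this difference was not tested against replicates.

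The 303 cells that the authors removed lie outside the comparisons above. Their inducible catalytic share was 74.9% (exact binomial interval 72.9 to 76.9), against 71.5% (71.2 to 71.7) in the analysed cells. The analysed cells include cluster 8, whose pooled share was 58.1%. Without cluster 8, the share was 72.2% in germ-free and 74.1% in colonized Foxp3GFP, and 72.4% and 73.9% in Foxp3CNS1-. The colonized values lay within the interval of the removed cells and the germ-free values below it. Psmb8 was at 1024 CPM in the removed and 916 CPM in the analysed cells, Psmb9 at 328 and 273 CPM and Psmb10 at 237 and 198 CPM. The removed cells also held Ccl5 at 15693 CPM, against 71.4 CPM in the analysed cells, and Cd74 at 12542 CPM, against 149 CPM. The part of these transcripts, or of cluster 8, in the difference between the shares was not tested.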

How the results depend on the processing

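Left-out libraries aside, 252 values were recomputed under alternatives. Of these, 198 stayed within a set range, 13 of them with the opposite sign. The range was the counting interval of the single gene at the main median, 1 SD over libraries of a cluster ratio or 1.5 times a count. That counting interval could be wide, such as -0.03 to 0.26 for the constitutive germ-free genotype median, so staying within it is a weak sign of stability. Another 53 moved farther, 4 with the opposite sign, and 1 reversed; the causes were not tested. No paired analysis was possible because each group is 1 library and the groups share a single replicate number. In Foxp3GFP, the inducible colonization median (0.31) was 0.24 with the cluster mix fixed and 0.22 without cells holding an interferon-list UMI, and the constitutive median (0.25) was 0.17 and 0.18. In Foxp3CNS1-, the inducible median (0.15) was 0.074 without those cells, and the constitutive median (0.23) was 0.13 at a fixed cluster mix, 0.14 with cells weighted equally and 0.14 without cluster 8. The germ-free genotype median of the inducible genes (0.16) was 0.22 without the interferon-UMI cells, and ran from 0.10 to 0.22 over the 12 alternatives.

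The count of members past the threshold depended on the setting most. In Foxp3GFP it was 11, and 7 without ribosomal and mitochondrial genes in the total, 7 with thinning, 6 with equal cell weights, 2 with the cluster mix fixed, 7 without the cells above the 98th percentile of UMIs and 0 at a fold of 1.5. In Foxp3CNS1- it was 5, and in the same order 3, 2, 0, 1, 1 and 0, with 8 under TMM factors and 0 without cluster 8. The germ-free genotype count of 1 was 0 without ribosomal and mitochondrial genes, under TMM factors, with thinning, with the cluster mix fixed and at a fold of 1.5, and 3 without the interferon-UMI cells. The colonized genotype count of 0 was 1 with equal cell weights and 3 without the interferon-UMI cells.

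For clusters, scaling without ribosomal and mitochondrial genes reversed the inducible ratio of cluster 5 (0.12 to -0.031) and gave inducible ratios of 0.061 in cluster 0, -0.0040 in cluster 1, -0.031 in cluster 2, 0.17 in cluster 3, -0.046 in cluster 4, 0.036 in cluster 6 and -0.074 in cluster 7. Constitutive ratios were -0.12 in cluster 1, -0.13 in cluster 2, -0.10 in cluster 3, 0.0056 in cluster 5, 0.027 in cluster 7, 0.58 in cluster 8 and -0.031 in cluster 9. Thinning gave -0.18 (constitutive, cluster 2), -0.040 and -0.017 (inducible and constitutive, cluster 6). Equal cell weights gave -0.18 (constitutive, cluster 2) and -0.051 (inducible, cluster 6). Without the deepest cells the constitutive ratio was -0.19 in cluster 2, -0.018 in cluster 6 and 0.68 in cluster 8. Other sign changes of cluster ratios, not counted as reversals because the main value did not have 1 sign in every library, included the inducible ratio of cluster 8 (0.10 to -0.054 under the same scaling). Leaving out each library in turn gave 0.72 to 0.76 for the constitutive ratio of cluster 8, 0.36 to 0.44 for the inducible and 0.076 to 0.17 for the constitutive ratio of cluster 3, and 0.044 to 0.16 for the inducible ratio of cluster 8; the inducible ratio of cluster 9 (0.077) ranged from -0.048 to 0.21.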
